A study of Mus musculus with 12 samples.

Results

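The adrenergic, cyclic AMP and phosphodiesterase genes are 41 genes of the pathway by which catecholamines, acetylcholine and adenosine set the heart's cyclic AMP. They were chosen by name, as the non-control array probes whose gene name in the scanner files is one of the 41, which gave 99 probes of 56605. The list holds 5 adrenergic receptors, 4 muscarinic or adenosine receptors, 3 G protein alpha subunits, 6 adenylyl cyclases, 5 subunits of protein kinase A, 11 phosphodiesterases, 2 anchoring proteins, 2 exchange factors, 2 receptor kinases and the transcription factor gene Crem. Each gene was represented by its brightest probe, and 38 of the 41 were tested among 19761 of 36981 genes. The other members, Adrb3, Adcy3 and Pde8a, had no group with 3 arrays well above background.

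The genes were measured in total RNA of mouse hearts on single-colour Agilent arrays, with 3 arrays in each of 4 groups. TG+MI are hearts of mice carrying a CCRR transgene, a long non-coding RNA, after myocardial infarction, and TG are transgenic hearts without it. WT+MI are wild-type hearts after infarction, and WT are wild-type hearts without it. The C57/BL6 strain is stated for WT+MI and WT only, so strain and transgene cannot be told apart. The labels state neither the transgene's promoter, the age of the mice nor how long after infarction hearts were taken, and they do not say whether replicate arrays are different mice. The p-values therefore measure the spread between these arrays, which may be technical.

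In the heart, noradrenaline binds beta-adrenergic receptors, and the stimulatory G protein switches on adenylyl cyclases, which make cyclic AMP. Cyclic AMP frees the catalytic subunits of protein kinase A from their regulatory subunits, and the kinase phosphorylates calcium channels, phospholamban and troponin I, so that the heart beats faster and harder. Inhibitory G proteins and phosphodiesterases lower cyclic AMP, receptor kinases desensitize the receptors, and anchoring proteins hold kinase and phosphodiesterase beside their targets.

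Values below are log2 signals relative to the 75th percentile of each array, so that a level of 0 is the signal at that percentile. Differences are on the same log2 scale and stand with limma's standard error, and group means stand with their SD (n = 3 each). A level is set only against levels of the same probe. A gene rose or fell where limma's adjusted p over all genes tested was below 0.05. In whole tissue, fewer cells of a type and less RNA per cell cannot be told apart.

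Each of 10 cardiomyocyte markers exceeded background on every array, with log2 summed signals of 11.5 to 11.8 in TG+MI, 11.4 to 11.7 in TG, 11.4 to 11.8 in WT+MI and 11.8 to 12.1 in WT. Several arrays stood apart in markers of other tissue. The log2 sum of 8 atrial markers was 3.39, 6.47 and 2.43 in TG+MI, 10.1, 7.96 and 9.70 in TG, 8.33, 2.09 and 2.29 in WT+MI, and 2.97, 3.03 and 2.62 in WT. Atrial markers were thus high on all TG arrays, on WT+MI 1 and on TG+MI 2, and the atrial gene Bmp10 was well above background on 1 array. The log2 sum of 11 adipocyte markers was 8.64 on TG 1 and between 7.31 and 8.01 on the other arrays. One of them, Fabp4, was by itself at 7.13 to 7.83 on the 12 arrays. A marker's deviation is its level minus its mean over the 12 arrays. The median deviation of the adipocyte markers was 5.39 on TG 1, 0.47 on TG 2 and 0.57 on TG 3. It lay between -1.73 and 0.32 on the remaining arrays. Ucp1, the uncoupling protein of brown fat, had a level of 4.59 on TG 1 and lay between -6.47 and -3.21 elsewhere, while the fat gene Elovl3 was well above background on 0 arrays. Slide 1 held all WT and WT+MI arrays with TG 1 and TG 2, and slide 2 held TG 3 with all TG+MI arrays. No slide holds both TG+MI and WT+MI arrays, so with slide as a block that comparison rests on the difference of TG 3 from TG 1 and TG 2. In that fit limma called 0 genes between TG+MI and WT+MI, with 1469 at an unadjusted p under 0.05.

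Of the 38 tested members, 8 rose and 13 fell in WT+MI against WT, where 18.6% of all genes tested were called higher and 29.3% lower. The median difference of the members was -0.13, beside -0.14 over all genes. In TG+MI against TG, 3 rose and 3 fell, where 5.21% of all genes were called higher and 3.64% lower, with a median of -0.02 beside 0.04 over all genes. In TG against WT, 1 rose and 0 fell by limma, where 1.49% of all genes were higher and 1.13% lower. At an unadjusted p under 0.05, 5 members were higher and 6 lower in that comparison. Between TG+MI and WT+MI, 2 were higher and 2 lower in TG+MI, where 7.79% of all genes were higher and 4.38% lower. Among the 35 members well above background on all 12 arrays, 2 rose and 3 fell in TG+MI against TG, and 8 rose and 12 fell in WT+MI against WT. The shares of members called after infarction in wild-type hearts thus lay near those of all genes. The comparisons share groups, so they are not independent of each other.

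**Figure D1:**
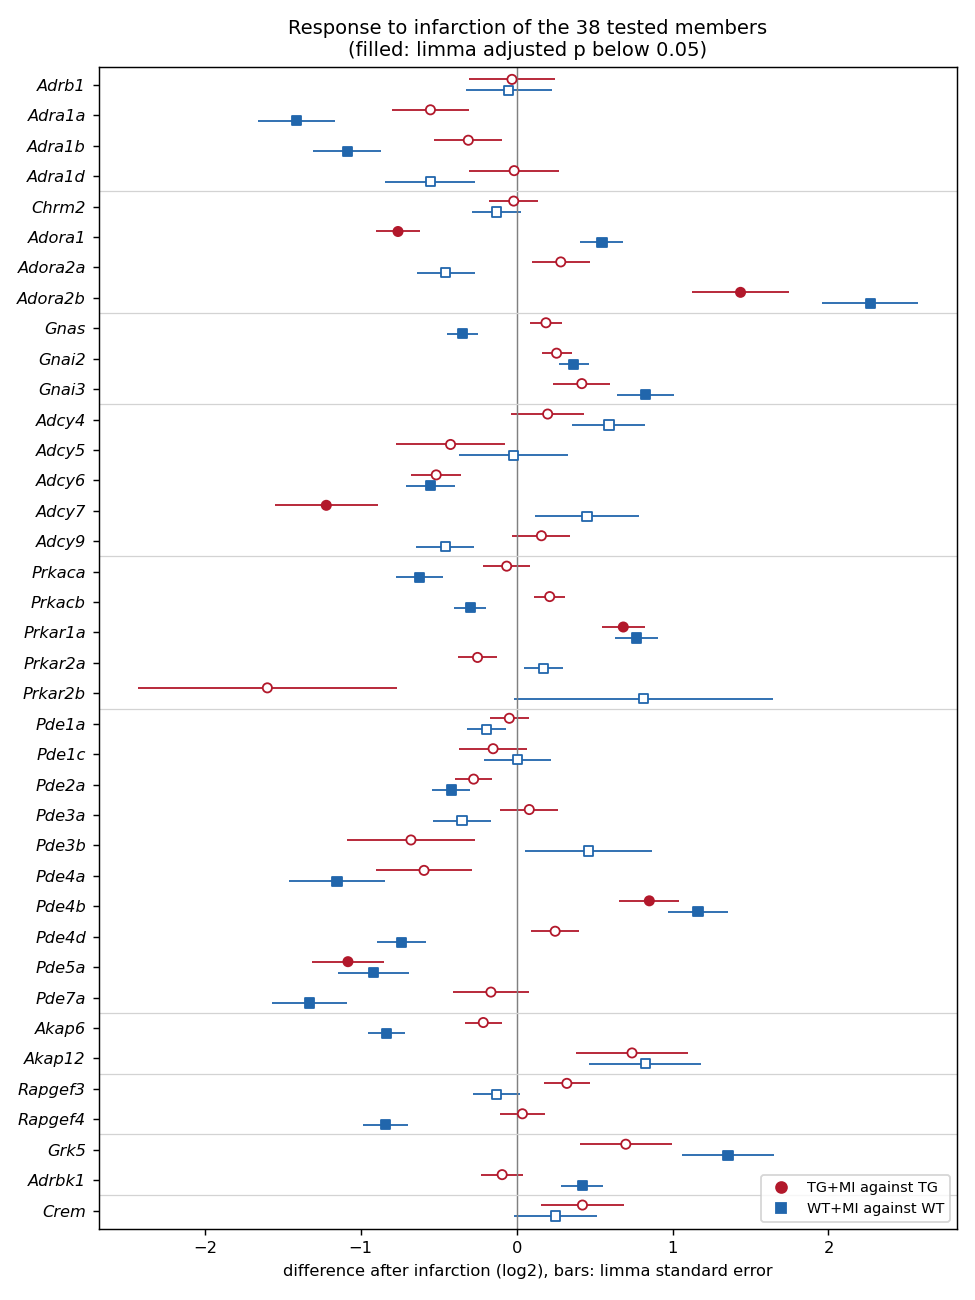
Difference after infarction (log2, x axis, with limma's standard error) of the 38 tested members, grouped by role from receptors at the top to Crem at the bottom. Red circles are TG+MI against TG and blue squares WT+MI against WT, filled where limma's adjusted p is below 0.05. Adora2b is plotted against values not well above background, where the bounds are at least 1.99- and 4.39-fold, and Adora1 is called in opposite directions (-0.76 and 0.55).

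Adora2b, Pde4b, Prkar1a and Pde5a were called in the same direction after infarction in both genotypes, the first 3 higher and Pde5a lower. Their promoters are shown because each gene kept its own direction in both genotypes. Printed are the 250 bases before a transcription start in RefSeq, build GRCm38.p6. Capitals mark TGACG, the half-site of the cyclic AMP response element, on either strand, and overlapping matches of the full element TGACGTCA run together.
Adora2b, chr11:62248734-62248983 (+ strand): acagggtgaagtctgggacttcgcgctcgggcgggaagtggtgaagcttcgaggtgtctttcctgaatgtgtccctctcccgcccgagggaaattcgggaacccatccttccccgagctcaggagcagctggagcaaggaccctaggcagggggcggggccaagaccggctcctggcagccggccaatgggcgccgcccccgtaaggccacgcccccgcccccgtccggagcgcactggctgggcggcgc
Prkar1a, chr11:109650699-109650948 (+ strand): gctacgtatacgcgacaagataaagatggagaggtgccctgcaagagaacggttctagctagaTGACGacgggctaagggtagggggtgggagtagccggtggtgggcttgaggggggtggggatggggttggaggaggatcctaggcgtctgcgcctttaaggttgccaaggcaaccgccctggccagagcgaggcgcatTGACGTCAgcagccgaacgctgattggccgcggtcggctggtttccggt
Pde4b, chr4:102421305-102421554 (+ strand): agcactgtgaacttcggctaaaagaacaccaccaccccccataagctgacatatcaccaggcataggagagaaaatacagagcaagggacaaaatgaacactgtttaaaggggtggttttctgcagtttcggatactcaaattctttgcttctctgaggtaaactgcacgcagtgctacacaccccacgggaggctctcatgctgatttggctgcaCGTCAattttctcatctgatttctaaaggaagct
Pde5a, chr3:122728908-122729157 (+ strand): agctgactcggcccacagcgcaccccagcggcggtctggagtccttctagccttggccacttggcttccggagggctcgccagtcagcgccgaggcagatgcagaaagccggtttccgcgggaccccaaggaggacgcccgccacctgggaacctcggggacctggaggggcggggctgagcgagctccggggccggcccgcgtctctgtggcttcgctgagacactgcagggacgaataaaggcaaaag
Prkar1a has 6 annotated starts and Pde4b has 4. For each, a window with the full element was preferred, then one with a half-site, then the lowest coordinate. These windows were thus picked for their motifs, while the shares below count every window. The full element starts 49 bases before this Prkar1a start, with a further half-site at 187 bases. The half-site in the Pde4b window starts 34 bases before the start, on the opposite strand. Neither motif is in the windows of Adora2b and Pde5a, which says only that these letters are absent from these windows. Among 32851 promoters of this length, 1.55% hold the full element and 17.8% a half-site. Of 60 promoter windows of 29 members, 1 holds the full element and 16, or 26.7%, a half-site.

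Adrenergic receptor genes fell or did not pass after infarction. Adra1a encodes the alpha-1A receptor, which couples to Gq and is cardioprotective in mouse models. Its level was -2.28, -2.72 and -2.20 in TG+MI, -2.23, -1.58 and -1.73 in TG, -4.00, -3.04 and -3.37 in WT+MI, and -2.06, -1.98 and -2.14 in WT. All 3 WT+MI arrays lay below every other array. Adra1a fell in WT+MI against WT by 1.41 ± 0.25 on the log2 scale (limma adjusted p = 0.00138). That call was lost under 1 of 23 settings, normexp background correction (adjusted p = 0.0686). The probe was well above background on 2 of 3 WT+MI arrays. WT+MI 1 lay below that array's lowest such signal, -3.66, so the size of the fall is in part not measured. Adra1a was higher in TG+MI against WT+MI by 1.07 ± 0.25 (adjusted p = 0.0315). That higher level missed the threshold under 9 of 22 settings, with 0.81 (adjusted p = 0.0931) without WT+MI 1, 0.89 (adjusted p = 0.676) with slide as a block and 0.13 (adjusted p = 0.595) with normexp. Between TG+MI and TG it differed by -0.55 ± 0.25 (adjusted p = 0.192), with overlapping groups. The interaction, which is the infarction response in transgenic hearts minus that in wild-type hearts, was 0.86 ± 0.35 for Adra1a and did not pass (adjusted p = 0.123).

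Adra1b, the alpha-1B receptor gene, had levels of 3.19, 2.95 and 2.80 in TG+MI, 3.34, 3.15 and 3.37 in TG, 1.65, 2.60 and 2.47 in WT+MI, and 3.33, 3.45 and 3.19 in WT. It fell in WT+MI against WT by 1.09 ± 0.22 (limma adjusted p = 0.00277), and the groups did not overlap. WT+MI 1, the infarcted wild-type array with atrial markers, was the lowest, and without it the difference was -0.79 (adjusted p = 0.00303). The difference of TG+MI from WT+MI, 0.74 ± 0.22, missed the threshold (adjusted p = 0.0517). Adra1d, the alpha-1D receptor gene, differed by -0.56 ± 0.29 in WT+MI against WT (adjusted p = 0.134), with overlapping groups.

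Adrb1, the main cardiac beta-adrenergic receptor gene, gave no call. Its level averaged 1.48 ± 0.66 in TG+MI, 1.51 ± 0.13 in TG, 1.40 ± 0.26 in WT+MI and 1.45 ± 0.17 in WT. TG+MI 3 was the lowest array, at 0.72. The difference was -0.03 ± 0.28 in TG+MI against TG (limma adjusted p = 0.961) and -0.05 ± 0.28 in WT+MI against WT (adjusted p = 0.894). The sympathetic genes Dbh, dopamine beta-hydroxylase, and Th, tyrosine hydroxylase, mark the nerves that release the receptor's ligand. Dbh was at 1.21, 0.64 and 1.58 in TG+MI, 2.46, 2.84 and 2.61 in TG, 0.33, -0.05 and 0.41 in WT+MI, and 2.21, 2.28 and 2.57 in WT, so that both infarcted groups lay below both others. Th was at -0.78, -0.97 and -0.24 in TG+MI, -0.62, -0.77 and -0.47 in TG, -1.18, -1.05 and -1.16 in WT+MI, and -0.23, -0.26 and -0.36 in WT, so that TG+MI overlapped TG while WT+MI lay below WT. Of 10 neuronal markers 5 were tested, of which 1 rose and 2 fell in WT+MI against WT. Their log2 sums were 3.81 to 4.21 in TG+MI, 3.85 to 4.2 in TG, 3.84 to 4.23 in WT+MI and 3.58 to 3.97 in WT. Uchl1 gave the largest share of the sum on each array. It was at 3.5 to 3.8 in TG+MI, 2.9 to 3.5 in TG, 3.7 to 4.1 in WT+MI and 2.6 to 3.1 in WT. Chrna3 and Slc6a2 were well above background on 0 arrays. The part of nerve RNA in the receptor values was not tested.

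Adrb3, the beta-3 receptor gene of adipose tissue, was not tested. Its other probe was at 0.94 on TG 1, the array with the highest adipocyte sum, and between -5.85 and -2.92 on the other 11 arrays. Both Adrb3 probes were well above background on 2 arrays.

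Adora2b encodes the A2B receptor, a low-affinity Gs-coupled receptor known from hypoxic tissue and leukocytes. Its level was -3.11, -1.98 and -2.62 in TG+MI, -4.43, -3.70 and -3.88 in TG, -1.16, -1.76 and -1.84 in WT+MI, and -4.07, -3.48 and -4.02 in WT. The probe exceeded background clearly in all 6 infarcted samples and in no other, and the infarcted groups lay above both others. Adora2b was at least 1.99-fold higher in TG+MI than in TG (limma adjusted p = 0.0195) and at least 4.39-fold higher in WT+MI than in WT (adjusted p = 0.000433). Each bound sets the infarcted mean against the mean of, per array, the higher of the probe's own signal and the lowest signal well above background. Adora2b entered the test through the infarcted arrays alone, so a difference was a condition of its being tested. With no filter on dim probes the adjusted p was 0.0473 in TG+MI against TG and 0.00157 in WT+MI against WT, and with slide as a block the call in transgenic hearts was lost (adjusted p = 0.272). TG+MI and WT+MI differed by -0.98 ± 0.31 (adjusted p = 0.0602).

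Adora1 encodes the A1 receptor, which couples to inhibitory G proteins and slows the heart, with the receptor known to be denser in atria than in ventricles. Its level was -0.17, -0.22 and -0.12 in TG+MI, 0.62, 0.67 and 0.48 in TG, -0.11, -0.02 and -0.51 in WT+MI, and -0.69, -0.93 and -0.67 in WT. The TG arrays were the highest and the WT arrays the lowest, with both infarcted groups between them. Adora1 rose in TG against WT by 1.35 ± 0.14 (limma adjusted p = 0.00238), the call of a member in that comparison. It fell in TG+MI against TG by 0.76 ± 0.14 (adjusted p = 0.00991) and rose in WT+MI against WT by 0.55 ± 0.14 (adjusted p = 0.0084).

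The interaction for Adora1 was -1.31 (limma adjusted p = 0.017). The atrial sum was also high on all TG arrays. In TG against WT, 2 of 7 tested atrial markers rose, with a median of 5.34, and in TG+MI against TG 3 fell, with a median of -5.32. On TG+MI 2 and WT+MI 1, the other arrays with high atrial sums, Adora1 was at -0.22 and -0.11. Without WT+MI 1 the difference of WT+MI from WT was 0.50 (limma adjusted p = 0.0319), and without TG+MI 2 that of TG+MI from TG was -0.73 (adjusted p = 0.0414). No TG array was without atrial markers, and their part in the TG values was not tested. Within slide 1, TG 1 and TG 2 exceeded WT by 1.41 (adjusted p = 0.017). With slide as a block the fall in TG+MI, which then rests on TG 3 alone, was 0.65 and missed the threshold (adjusted p = 0.208). With the mean of all its probes, the others of which were well above background on 4 and 0 arrays, the rise in WT+MI was 0.09 (adjusted p = 0.689).

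Adora2a, a Gs-coupled adenosine receptor gene, and Chrm2, the muscarinic M2 receptor gene through which the vagus nerve slows the heart, gave no call. Adora2a differed by 0.28 ± 0.19 in TG+MI against TG (limma adjusted p = 0.374) and by -0.46 ± 0.19 in WT+MI against WT (adjusted p = 0.0654). Chrm2 lay between 0.83 and 1.40 on the 12 arrays, and differed by -0.02 ± 0.16 in TG+MI against TG and by -0.13 ± 0.16 in WT+MI against WT (adjusted p = 0.954 and 0.528).

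**Figure D2:**
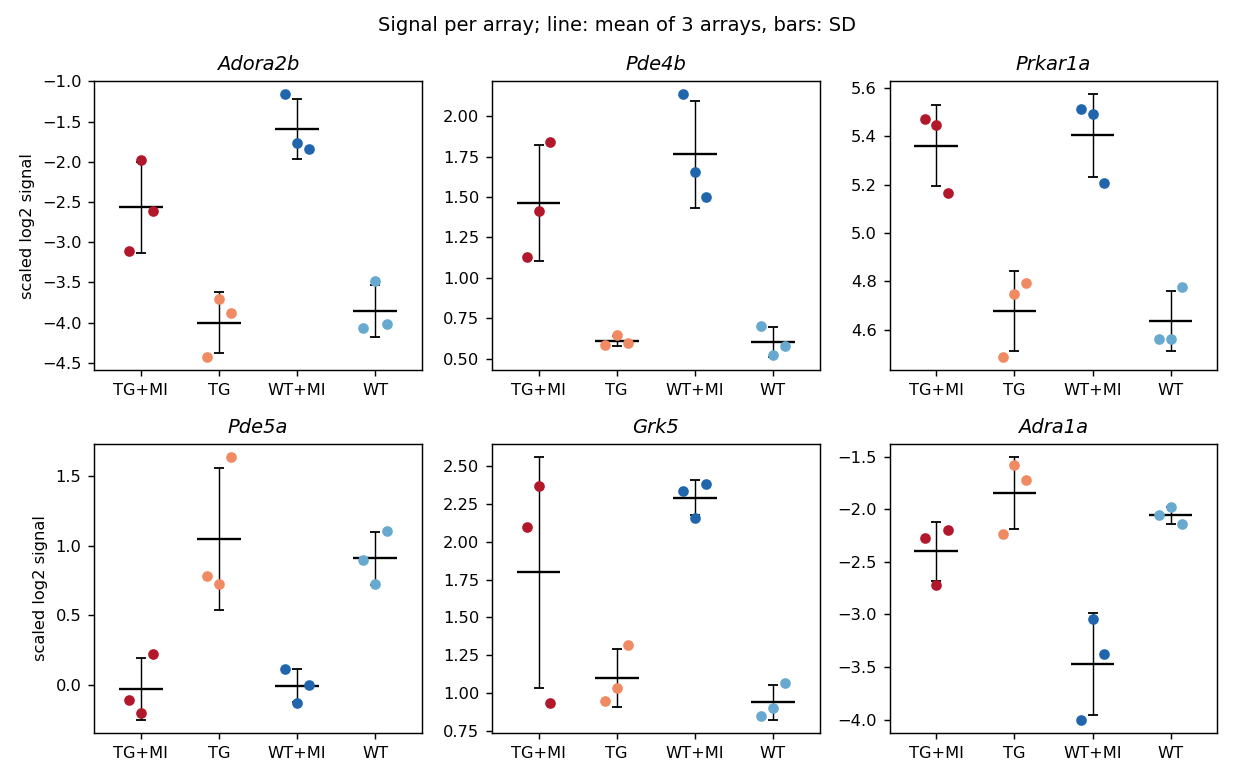
Scaled log2 signal (y axis) of 6 members on each array, with points for arrays, a line for the mean of 3 and bars for the SD. Adora2b, Pde4b and Prkar1a are higher and Pde5a lower in both infarcted groups, while TG+MI 3 sits apart for Grk5 (0.93) and Adra1a is lowest in WT+MI.

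The G protein genes changed by less than 1 on the log2 scale. Gnai3, an inhibitory alpha subunit, was at 2.15, 2.48 and 2.0 in TG+MI, 1.95, 1.67 and 1.75 in TG, 2.96, 2.26 and 2.42 in WT+MI, and 1.78, 1.66 and 1.73 in WT. It rose in WT+MI against WT by 0.82 ± 0.18 (limma adjusted p = 0.00449), with no overlap, and differed by 0.42 ± 0.18 in TG+MI against TG (adjusted p = 0.181). Gnai2, the other inhibitory subunit, rose in WT+MI against WT by 0.36 ± 0.10 (adjusted p = 0.0107). It was lower in TG+MI against WT+MI by -0.34 ± 0.10 (adjusted p = 0.0462), a call that was lost under 17 of 23 alternative settings. Gnas, the stimulatory alpha subunit, fell in WT+MI against WT by 0.35 ± 0.10 (adjusted p = 0.0171). Gnas was at 7.87, 7.77 and 7.99 in TG+MI, 7.54, 7.79 and 7.74 in TG, 7.67, 7.76 and 7.67 in WT+MI, and 8.0, 8.04 and 8.09 in WT.

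Among the adenylyl cyclases, Adcy6, one of the main cyclases of the cardiomyocyte, had levels of 2.36, 2.29 and 2.20 in TG+MI, 2.62, 2.73 and 3.04 in TG, 1.5, 1.92 and 2.02 in WT+MI, and 2.27, 2.28 and 2.55 in WT. Neither infarcted group overlapped its uninfarcted group. Adcy6 fell in WT+MI against WT by 0.55 ± 0.16 (limma adjusted p = 0.0158), and without WT+MI 1 the difference was -0.40 (adjusted p = 0.0573). In TG+MI against TG it differed by -0.52 ± 0.16 (adjusted p = 0.0703). Adcy7, a cyclase known from leukocytes and platelets, fell in TG+MI against TG by 1.22 ± 0.33 (adjusted p = 0.047). Its level was 1.16, 1.36 and -0.15 in TG+MI, 2.43, 1.81 and 1.79 in TG, 1.60, 1.65 and 1.40 in WT+MI, and 1.08, 1.12 and 1.11 in WT. TG+MI 3 was far below the other arrays, and the Adcy7 call was lost under 14 of 24 settings. The log2 sum of 10 monocyte and macrophage markers was 8.06 on TG+MI 3, beside 7.93 on TG+MI 1 and 8.01 on TG+MI 2. That of 9 fibroblast markers was 7.91 on TG+MI 3, beside 7.93 and 7.91. The median deviation of the macrophage markers was -0.75 on TG+MI 3, beside 0.02 on TG+MI 1 and 0.10 on TG+MI 2. That of the fibroblast markers was -0.42, beside -0.23 and -0.17. The macrophage gene Adgre1, at -0.43, had its lowest level of all arrays on TG+MI 3. So did Cd68, Lyz2, Csf1r, C1qa, C1qb and Ccr2, while Itgam and Mrc1 did not. The collagen gene Col3a1, at 2.74, was also lowest there, with Col1a1, Col1a2 and Lum, while the other fibroblast markers were not. The monocyte gene Ly6c2, at 7.39, had its highest. The part of other cells in the Adcy7 values was not tested.

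Adcy5, the other main cardiac cyclase, was not called, and WT 1 stood apart. Its level was 2.25, 1.84 and 2.42 in TG+MI, 2.58, 2.62 and 2.59 in TG, 1.38, 1.66 and 1.52 in WT+MI, and 0.52, 2.24 and 1.87 in WT. All TG arrays exceeded all WT arrays, by 1.05 ± 0.35 on average (limma adjusted p = 0.155). Without WT 1, Adcy5 was lower in WT+MI against WT by -0.53 ± 0.18 (adjusted p = 0.0451), against -0.02 ± 0.35 with it. The log2 sum of 7 erythroid markers was 10.1 on WT 1 and 8.21 to 9.54 on the other arrays, with Alas2 at 7.24 against 1.35 to 4.24, and their part in the Adcy5 values was not tested. Adcy4, a cyclase of endothelial cells, differed by 0.20 ± 0.23 in TG+MI against TG (adjusted p = 0.636) and by 0.59 ± 0.23 in WT+MI against WT (adjusted p = 0.0581). Adcy9 differed by 0.16 ± 0.19 and -0.46 ± 0.19 in these comparisons (adjusted p = 0.634 and 0.0642), and Adcy3 was well above background on 0 arrays.

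Protein kinase A subunits moved in opposite directions. Prkar1a encodes the type I regulatory subunit, which holds the catalytic subunits inactive. It was at 5.47, 5.45 and 5.17 in TG+MI, 4.49, 4.75 and 4.80 in TG, 5.51, 5.49 and 5.21 in WT+MI, and 4.56, 4.56 and 4.78 in WT. Every infarcted array exceeded every other array. Prkar1a rose by 0.68 ± 0.14 in TG+MI against TG (limma adjusted p = 0.0144) and by 0.77 ± 0.14 in WT+MI against WT (adjusted p = 0.00147). The call in transgenic hearts was lost under 5 of 24 settings, among them slide as a block, where the difference was 0.57 (adjusted p = 0.27). A probe of the same transcript, the second of its 3 by signal, rose by 0.64 in TG+MI against TG and by 0.70 in WT+MI against WT.

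Prkaca, the main catalytic subunit, was at 5.50, 5.37 and 5.57 in TG+MI, 5.34, 5.68 and 5.62 in TG, 4.72, 5.20 and 5.21 in WT+MI, and 5.61, 5.80 and 5.61 in WT. It fell in WT+MI against WT by 0.62 ± 0.15 (limma adjusted p = 0.00665), with no overlap, and differed by -0.06 ± 0.15 in TG+MI against TG (adjusted p = 0.824). Prkacb, the other catalytic subunit, fell in WT+MI against WT by 0.30 ± 0.10 (adjusted p = 0.0317), a call lost under 9 of 24 settings. Prkar2a, the type II alpha regulatory subunit, differed by -0.25 ± 0.12 in TG+MI against TG and by 0.17 ± 0.12 in WT+MI against WT (adjusted p = 0.237 and 0.278).

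Prkar2b, a regulatory subunit known from adipose tissue and brain, was at -0.38, -0.43 and -1.19 in TG+MI, 3.36, -0.28 and -0.28 in TG, 1.01, -0.21 and -0.02 in WT+MI, and 0.12, -0.68 and -1.11 in WT. TG 1, the array with adipocyte markers, stood alone. The difference of TG from WT was 1.49 ± 0.83 with TG 1 and 0.27 ± 0.44 without it (limma adjusted p = 0.383 and 0.902). Pde3b, the phosphodiesterase through which insulin acts in fat cells, was likewise at 1.39 on TG 1 and between -1.0 and 0.12 elsewhere. Its difference of TG from WT was 1.03 ± 0.41 with TG 1 and 0.49 ± 0.28 without it (adjusted p = 0.225 and 0.566). The part of fat tissue in these values was not tested.

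**Figure D3:**
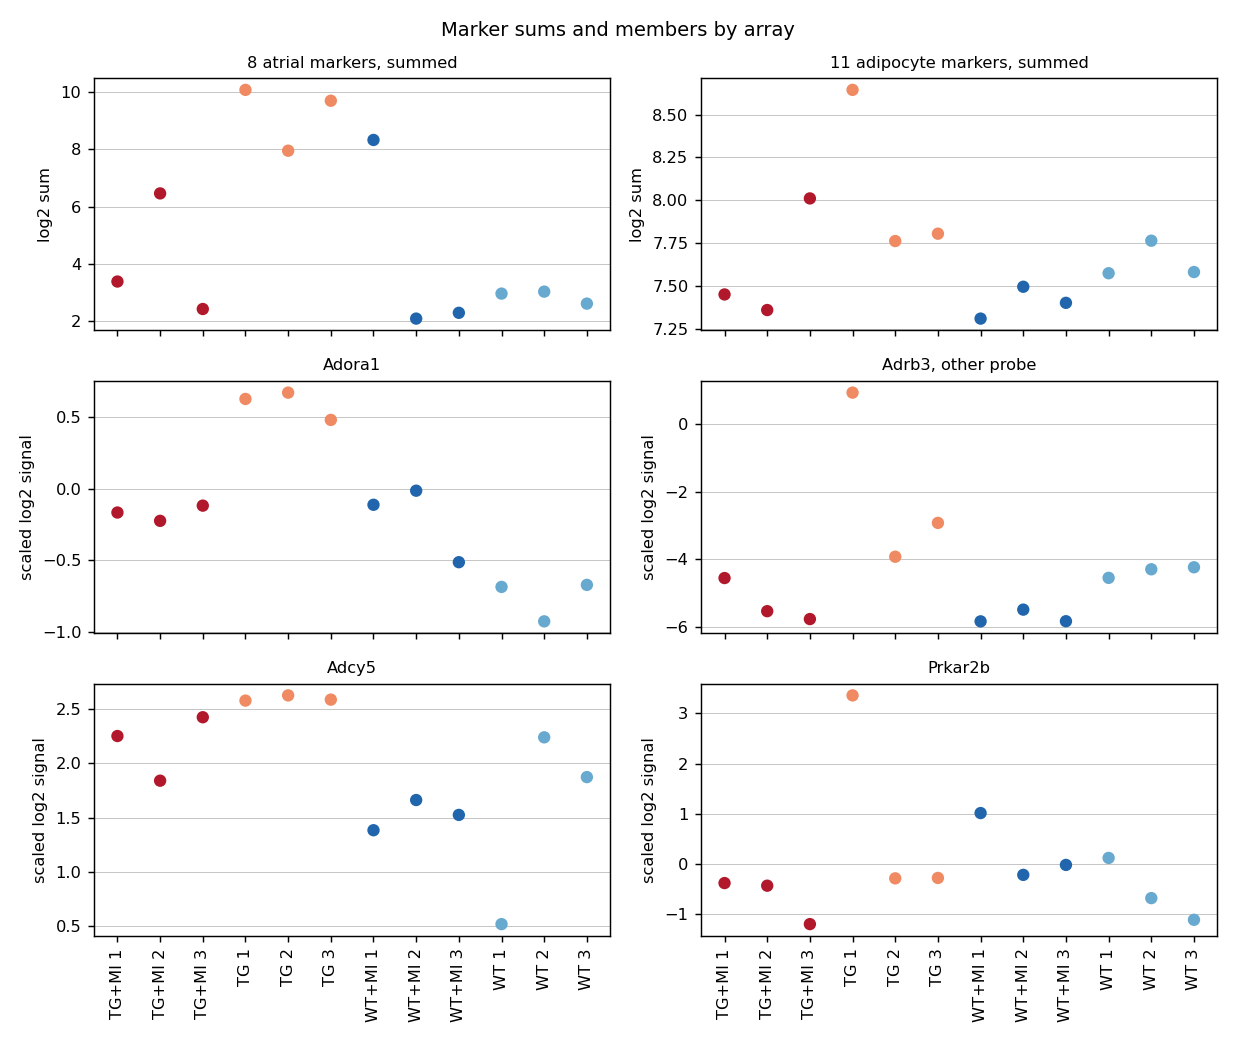
Values on each of the 12 arrays (x axis), coloured by group. The log2 sums of 8 atrial and 11 adipocyte markers stand above the scaled log2 signals of Adora1 and Adcy5 (left) and of the other Adrb3 probe and Prkar2b (right). TG 1 is the highest array in the right column (8.64, 0.94 and 3.36), and the TG arrays have the highest Adora1 and Adcy5 signals.

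Of the 10 tested phosphodiesterases, 1 rose and 5 fell in WT+MI against WT, where 18.6% of all genes were called higher and 29.3% lower. Their median was -0.39, beside -0.14 over all genes. Pde4b, a cyclic AMP phosphodiesterase known from inflammatory cells and calcium channel control, was at 1.13, 1.41 and 1.84 in TG+MI, 0.58, 0.64 and 0.60 in TG, 2.14, 1.66 and 1.5 in WT+MI, and 0.70, 0.52 and 0.58 in WT. Both infarcted groups lay above both others. Pde4b rose by 0.85 ± 0.19 in TG+MI against TG (limma adjusted p = 0.0237) and by 1.16 ± 0.19 in WT+MI against WT (adjusted p = 0.00104). The call in transgenic hearts was lost under 10 of 24 settings, slide as a block among them (adjusted p = 0.249). The call in wild-type hearts was lost under 1, the mean of all probes (adjusted p = 0.1).

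Pde5a degrades cyclic GMP and is the target of sildenafil. It was at -0.11, -0.20 and 0.22 in TG+MI, 0.79, 0.72 and 1.64 in TG, 0.11, -0.13 and 0.00 in WT+MI, and 0.90, 0.72 and 1.11 in WT. Pde5a fell by 1.08 ± 0.23 in TG+MI against TG (limma adjusted p = 0.0178) and by 0.92 ± 0.23 in WT+MI against WT (adjusted p = 0.00795). TG 3 was the highest array, and without TG+MI 2 the call in transgenic hearts was lost. Smooth muscle expresses this enzyme, and of 9 smooth muscle and pericyte markers 4 fell in TG+MI against TG, while 4 fell and 1, Des, rose in WT+MI against WT, with sums of 7.26 to 7.37 in TG+MI, 7.5 to 7.84 in TG, 7.0 to 7.15 in WT+MI and 7.53 to 7.67 in WT. Each of the 9 markers exceeded background on every array, and their part in the Pde5a values was not tested.

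Pde7a, Pde4a and Pde2a also fell in WT+MI against WT. Pde7a was at 1.61, 1.58 and 1.88 in TG+MI, 1.64, 2.05 and 1.89 in TG, 0.48, 0.82 and 1.42 in WT+MI, and 1.87, 2.56 and 2.28 in WT. It fell in WT+MI against WT by 1.33 ± 0.24 (limma adjusted p = 0.00167), with all WT+MI arrays below the others. It differed by -0.17 ± 0.24 in TG+MI against TG (adjusted p = 0.711) and by 0.78 ± 0.24 in TG+MI against WT+MI (adjusted p = 0.0579). Pde4a was at 4.2, 3.90 and 3.06 in TG+MI, 4.2, 4.16 and 4.59 in TG, 2.69, 3.46 and 3.69 in WT+MI, and 4.50, 4.46 and 4.34 in WT. It fell in WT+MI against WT by 1.15 ± 0.30 (adjusted p = 0.0107), while TG+MI overlapped TG. Pde2a, which cyclic GMP stimulates to break down cyclic AMP, fell in WT+MI against WT by 0.42 ± 0.12 (adjusted p = 0.0161). That call was lost under 3 of 24 settings. Pde3a, the cardiac enzyme that milrinone inhibits, differed by 0.08 ± 0.19 in TG+MI against TG and by -0.35 ± 0.19 in WT+MI against WT (adjusted p = 0.822 and 0.144).

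Pde4d, which sits at the ryanodine receptor and at beta-adrenergic receptors, fell after infarction in wild-type hearts. Its level was 0.21, -0.28 and 0.34 in TG+MI, -0.23, -0.22 and -0.01 in TG, -0.66, -0.56 and -0.43 in WT+MI, and 0.26, 0.24 and 0.08 in WT. The WT+MI arrays were the lowest of all 12. Pde4d differed by 0.25 ± 0.16 in TG+MI against TG (limma adjusted p = 0.352) and fell in WT+MI against WT by 0.74 ± 0.16 (adjusted p = 0.00354). Pde4d missed the threshold for this fall with the mean of all its probes (adjusted p = 0.182). It was higher in TG+MI against WT+MI by 0.64 ± 0.16 (adjusted p = 0.0344), a call lost under 11 of 23 settings, among them the mean of all probes, where the difference was 0.002 (adjusted p = 0.997), and slide as a block (adjusted p = 0.713). The interaction was 0.98 ± 0.22 (adjusted p = 0.0367).

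Of the anchoring proteins 1 of 2 fell in WT+MI against WT, as did 1 of 2 exchange factors. Akap6, the muscle anchoring protein of the nuclear envelope, was at 4.29, 4.18 and 4.26 in TG+MI, 4.33, 4.56 and 4.48 in TG, 3.75, 4.00 and 4.18 in WT+MI, and 4.78, 4.84 and 4.83 in WT. It fell in WT+MI against WT by 0.84 ± 0.12 (limma adjusted p = 0.000514) and differed by -0.21 ± 0.12 in TG+MI against TG (adjusted p = 0.289). Rapgef4 encodes Epac2, a cyclic AMP sensor that activates Rap. It was at -0.04, -0.36 and 0.08 in TG+MI, -0.32, -0.10 and -0.01 in TG, -0.65, -0.30 and -0.38 in WT+MI, and 0.38, 0.49 and 0.32 in WT. All WT arrays were above the rest. Rapgef4 fell in WT+MI against WT by 0.84 ± 0.14 (adjusted p = 0.00125) and differed by 0.04 ± 0.14 in TG+MI against TG (adjusted p = 0.901). Rapgef3, or Epac1, was not called, and Akap12, also called gravin, differed by 0.74 ± 0.36 in TG+MI against TG and 0.82 ± 0.36 in WT+MI against WT (adjusted p = 0.223 and 0.0789).

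Both receptor kinases rose in WT+MI against WT. Grk5 was at 2.10, 2.37 and 0.93 in TG+MI, 0.95, 1.03 and 1.32 in TG, 2.34, 2.16 and 2.38 in WT+MI, and 0.84, 0.90 and 1.07 in WT. It rose in WT+MI against WT by 1.36 ± 0.30 (limma adjusted p = 0.00417), and WT+MI lay above WT by more than the spread of either. In TG+MI against TG it differed by 0.70 ± 0.30 (adjusted p = 0.168) with TG+MI 3, which was at the level of TG. Without TG+MI 3 that difference was 1.13 ± 0.14 (adjusted p = 0.00285). Adrbk1, now named Grk2, which desensitizes beta-adrenergic receptors in the failing heart, was at 2.68, 2.66 and 2.20 in TG+MI, 2.57, 2.68 and 2.58 in TG, 3.19, 3.02 and 2.96 in WT+MI, and 2.72, 2.62 and 2.57 in WT. It rose in WT+MI against WT by 0.42 ± 0.13 (adjusted p = 0.0247), a call lost under 5 of 24 settings. Adrbk1 was lower in TG+MI against WT+MI by -0.54 ± 0.13 (adjusted p = 0.0348). That call was lost under 12 of 23 settings, slide as a block among them (adjusted p = 0.672). Its other probe differed by -0.06 and -0.19 in these comparisons and was not called.

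Some leukocyte, fibroblast and cardiomyocyte markers were called in the same comparisons as members. Of all genes tested, 18.6% were called higher and 29.3% lower in WT+MI against WT, and 5.21% and 3.64% in TG+MI against TG. Between TG+MI and WT+MI, 7.79% were higher and 4.38% lower in TG+MI. Of 9 tested neutrophil markers, 4 rose in TG+MI against TG, 6 rose and 2 fell in WT+MI against WT, and 5 were lower in TG+MI against WT+MI. The log2 sum of the neutrophil markers was 7.21 to 7.36 in TG+MI, 6.86 to 6.98 in TG, 8.26 to 8.98 in WT+MI and 7.13 to 7.30 in WT. Csf3r, at 6.80 to 7.34 on all arrays, gave most of that sum outside WT+MI. Their median deviation was -0.06 to 0.88 in TG+MI and -1.94 to -1.62 in TG. It was 2.09 to 3.53 in WT+MI and -1.28 to -0.36 in WT. The granule gene Ngp was well above background on 2 arrays and Ltf on 3. Of 10 monocyte and macrophage markers, 2 fell in TG+MI against TG, 2 rose in WT+MI against WT and 2 were lower in TG+MI against WT+MI, with sums of 7.93 to 8.06 in TG+MI, 7.85 to 8.12 in TG, 7.86 to 8.36 in WT+MI and 7.76 to 7.85 in WT. Of 9 fibroblast markers, 4 fell in TG+MI against TG, and 1 rose and 3 fell in WT+MI against WT, with sums of 7.91 to 7.93 in TG+MI, 8.57 to 8.98 in TG, 7.55 to 7.87 in WT+MI and 8.09 to 8.28 in WT. Of 10 cardiomyocyte markers, 3 fell in WT+MI against WT, and 0 rose and 0 fell in TG+MI against TG. Of 6 tested lymphocyte markers, 0 rose and 0 fell in both of these comparisons. The part of these cells in the values of the members was not tested.

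The interaction tested whether the infarction response differed between genotypes. Of the 38 members, 4 had a higher response in transgenic hearts, where 5.85% of all genes were called higher, and 1 a lower response, where 3.05% were called lower. Pde4d is given above. Rapgef4 had an interaction of 0.88 (limma adjusted p = 0.0386), Akap6 of 0.62 (adjusted p = 0.0476) and Gnas of 0.53 (adjusted p = 0.0468). For these 4 genes the level fell in WT+MI against WT and gave no call in TG+MI against TG. The TG level lay below the WT level in each, with differences of -0.34 for Pde4d, -0.54 for Rapgef4, -0.36 for Akap6 and -0.36 for Gnas, none of which was called. Adora1, at -1.31, was the member with the lower response. With slide as a block no member was called for the interaction by limma, though 9 members had an unadjusted p under 0.05. The 5 calls were also lost when WT replicate 2 was left out, with 12 members at an unadjusted p under 0.05.

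**Figure D4:**
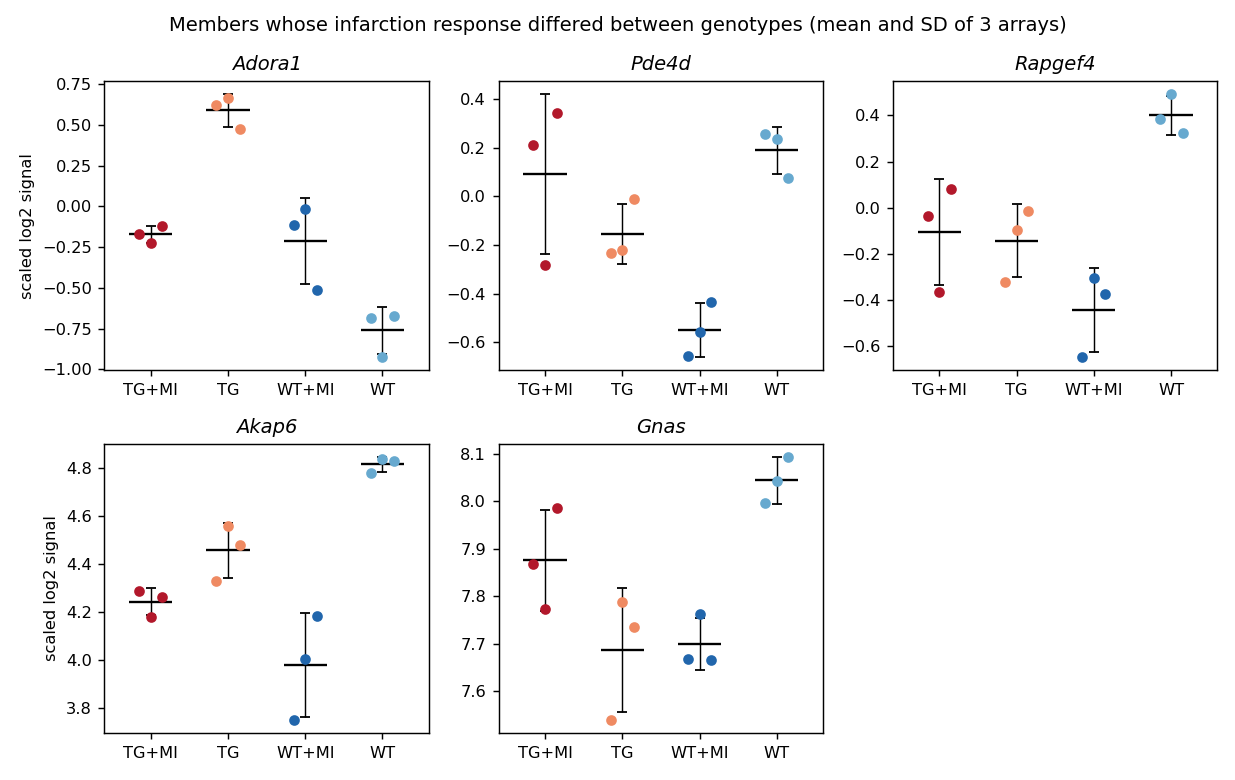
Scaled log2 signal (y axis) per array of the 5 members called for the interaction, with the mean and SD of 3 arrays. In WT+MI the levels of Pde4d, Rapgef4, Akap6 and Gnas lie below those in WT, while TG+MI and TG lie closer together, and Adora1 is highest in TG (0.48 to 0.67).

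Probes of the same gene did not always move together. Pde4b had 5 tested probes, numbered from the 5′ end. Probe 5, which represents the gene, lies on mm9 at chr4:102279393-102279452, and probes 4 and 5 rose in WT+MI against WT by 1.44 and 1.16. Probe 1, at the 5′ end of the long transcript, was at -3.31, -4.03 and -3.60 in TG+MI, -3.47, -4.13 and -3.80 in TG, -4.45, -3.57 and -3.79 in WT+MI, and -3.12, -2.96 and -3.19 in WT. All 3 WT+MI arrays lay below every WT array and below the lowest signal well above background on their own array, so the size of that difference is not measured. Probe 1 was well above background on 7 arrays. Probe 3, well above background on 9 arrays, was at -2.04, -2.03 and 0.18 in TG+MI, -4.80, -4.32 and -3.45 in TG, -0.69, -1.26 and -2.22 in WT+MI, and -3.75, -5.32 and -2.36 in WT. Each infarcted group lay above its uninfarcted group, where 2 TG arrays and 1 WT array were below the lowest signal well above background, and no size is given.

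Pde1a, a calmodulin-stimulated phosphodiesterase, was not called by its representative probe, which differed by -0.05 ± 0.13 in TG+MI against TG and by -0.19 ± 0.13 in WT+MI against WT. Its 3′ probes gave other values. The probe of NM_001009978 was at -0.70, -0.15 and -0.56 in TG+MI, -0.15, -0.53 and -0.40 in TG, 0.34, -0.08 and 0.16 in WT+MI, and -1.0, -0.67 and -0.92 in WT. It rose in WT+MI against WT by 1.0 ± 0.17 (limma adjusted p = 0.00137 over all probes), and its interaction was -1.12 (adjusted p = 0.0372). The probe of NM_016744 rose by 0.74 ± 0.17 in WT+MI against WT (adjusted p = 0.0054).

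Pde4d had 5 tested probes, and the 3 nearest the 3′ end fell in WT+MI against WT, by 0.40, 0.74 and 1.3. The other 2 probes, on 6 and 11 arrays well above background, gave no call. The 3 Gnas probes nearest the 3′ end fell in WT+MI against WT by 0.35, 0.41 and 0.53, and the most 5′ tested probe, of ENSMUST00000149016, rose by 0.99 ± 0.33. That 5′ probe was at 1.13, 0.59 and -0.56 in WT+MI and -0.68, -0.49 and -0.62 in WT, so the groups overlapped. The tested Gnas probes between them differed by 0.03, -0.10 and -0.10 and were not called. Pde1c, another calmodulin-stimulated phosphodiesterase, was called by 1 of 4 probes, that of NM_011054, well above background on 10 arrays, which fell by 1.03 in TG+MI against TG and by 0.88 in WT+MI against WT. Crem, a repressor and activator of cyclic AMP target genes, differed by 0.42 ± 0.27 in TG+MI against TG and by 0.25 ± 0.27 in WT+MI against WT by its representative probe (limma adjusted p = 0.35 and 0.46). Of its 3 tested probes, that of NM_001110851, well above background on 8 arrays, was called higher in WT+MI against WT. Pde3a gave a call by 1 of 3 tested probes, a fall of 0.63 in WT+MI against WT, and the other 2 Akap6 probes, at -0.35 and -0.37, did not pass.

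**Figure D5:**
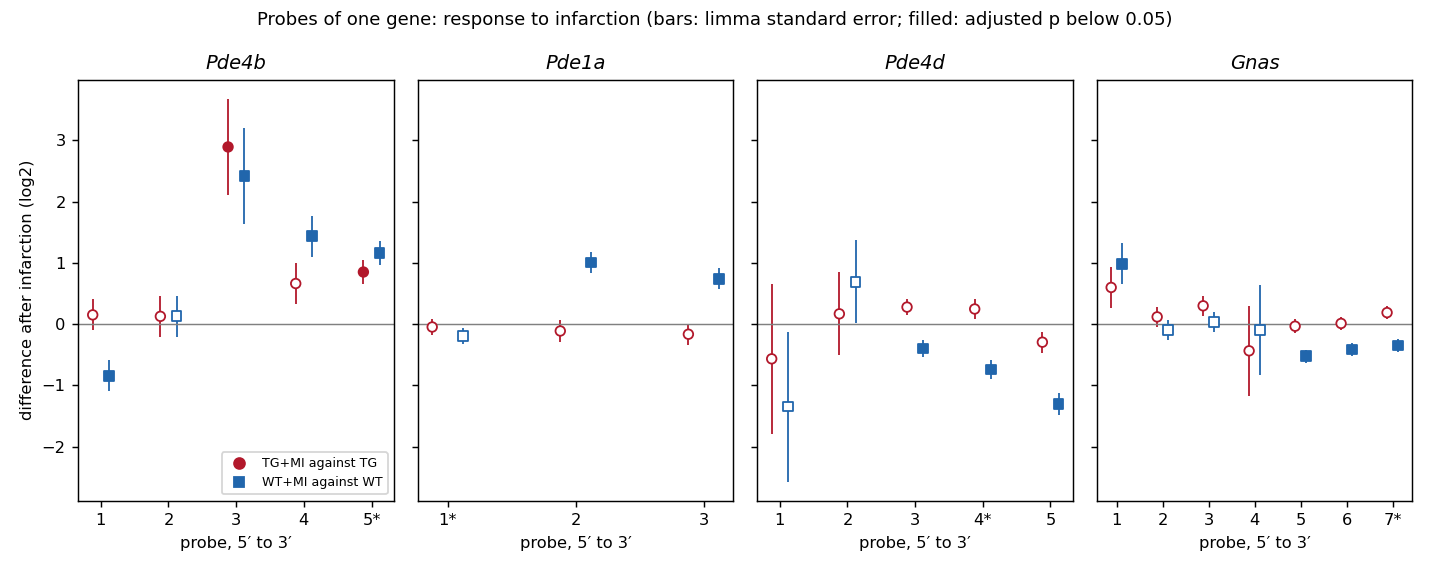
Difference after infarction (log2, y axis, with limma's standard error) of each tested probe of Pde4b, Pde1a, Pde4d and Gnas, ordered from 5′ to 3′ by the gene's strand, with an asterisk on the probe that represents the gene. Red circles are TG+MI against TG and blue squares WT+MI against WT, filled where the adjusted p over all probes is below 0.05. In Pde4b the last 2 probes rise in wild-type hearts (1.44 and 1.16), while the points of probes 1 and 3 rest in part on values not well above background.

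Further genes of the pathway, 118 of them tested, moved in both directions. For TG+MI against TG, 9 rose and 13 fell, and in WT+MI against WT 33 rose and 34 fell. Of all genes tested, 5.21% were called higher and 3.64% lower in the first comparison, and 18.6% and 29.3% in the second. The list counts that follow stand beside these shares. Single calls of these further genes were not followed under the alternative settings. In TG+MI against TG, 1749 genes were called in all, and 119 with slide as a block. Of 11 tested cardiac targets of protein kinase A, 7 fell and 1 rose in WT+MI against WT. Pln, phospholamban, fell by 1.37 ± 0.23 (limma adjusted p = 0.00108), Kcnq1, a delayed rectifier channel, by 0.89 ± 0.27, and Cacna1c, the L-type calcium channel, by 0.88 ± 0.33. After infarction in transgenic hearts 1 rose and 1 fell: Rrad, an inhibitor of calcium channels, rose by 1.15 ± 0.18, and Kcne1, a channel subunit, fell by 1.91 ± 0.42.

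Of 11 other tested genes named as phosphodiesterases or their subunits, 1 rose and 4 fell in WT+MI against WT. Pde7b fell by 2.02 ± 0.34, Pde8b by 1.55 ± 0.30 and Pde6d by 0.71 ± 0.15, while Pde1b rose by 1.24 ± 0.19 (limma adjusted p = 0.000644). Pde1b was lower in TG+MI against WT+MI by -0.91 ± 0.19 (adjusted p = 0.0285). Of 25 other G protein and RGS genes, 5 rose and 7 fell in WT+MI against WT. Rgs16, which speeds the switching off of Gi and Gq, rose by 2.23 ± 0.24 in TG+MI against TG and by 2.93 ± 0.24 in WT+MI against WT. Gnao1, a Gi family subunit, was higher in TG against WT by 1.77 ± 0.22 and fell in TG+MI against TG by 1.56 ± 0.22. Atrial markers were high on all TG arrays, and their part in the Gnao1 values was not tested.

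Of 20 other anchoring, exchange and cyclic AMP binding genes, 6 rose and 6 fell in WT+MI against WT. Akap5, which anchors the kinase at beta-adrenergic receptors and calcium channels, fell by 2.93 ± 0.43 (limma adjusted p = 0.000623), and Akap1, the mitochondrial anchor, by 1.24 ± 0.19. Of 8 other cyclase, kinase and inhibitor genes, 4 rose and 3 fell. Pkia, an inhibitor peptide of the kinase, fell by 1.10 ± 0.18 in WT+MI against WT and had an interaction of 1.10 ± 0.26 (adjusted p = 0.039). Adcy1 fell by 2.45 ± 0.35 in TG+MI against TG and by 1.13 ± 0.35 in WT+MI against WT. Arrb2, a beta-arrestin, rose by 1.24 ± 0.24 in WT+MI against WT, the single rise among 6 other receptor kinase and arrestin genes, which leave out Grk5 and Adrbk1.

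Of 12 early response genes with cyclic AMP response elements, 9 rose and 1 fell in WT+MI against WT. In TG against WT 6 rose, where 1.49% of all genes were called higher. In TG+MI against TG 2 rose, Atf3 and Junb, and 1, Dusp1, fell by 1.03 ± 0.23, with a median of -0.18 for the list. Fos was higher in TG against WT by 4.35 ± 0.74 (limma adjusted p = 0.0153) and in WT+MI against WT by 5.10 ± 0.74 (adjusted p = 0.000576), and its interaction was -4.77 ± 1.05 (adjusted p = 0.0362). Atf3 rose by 2.32 ± 0.57 in TG+MI against TG and by 4.49 ± 0.57 in WT+MI against WT. In the CREB family, 2 of 10 genes rose in TG+MI against TG, and 4 rose and 1 fell in WT+MI against WT, with Creb3 higher by 0.46 ± 0.11 in transgenic and by 0.66 ± 0.11 in wild-type hearts. Of 15 other receptor genes of the pathway, Ramp1, a partner of the calcitonin-like receptor, was higher in TG against WT by 1.23 ± 0.17 and fell in TG+MI against TG by 1.72 ± 0.17. The part of atrial tissue in the Ramp1 values was not tested either. Vipr2, a receptor of vasoactive intestinal peptide, fell by 1.45 ± 0.37 in TG+MI against TG and by 2.02 ± 0.37 in WT+MI against WT.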

How the data were processed

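Agilent single-colour arrays of 12 mouse heart samples were analysed, 3 in each of 4 groups taken from the sample characteristics. The titles of WT+MI 2 and 3 carry another prefix than their group. Per the file headers, the scanner files come from Agilent Feature Extraction 12.0.3.1, and their processed signals are intensity values of 1 array, background-subtracted and detrended but not normalized between arrays. The authors' deposited value table holds log2 values with equal column distributions, made by steps the labels do not state. Among tools, the submitters' processing notes list limma, with no version and no role. Probe coordinates are on mm9, per the file headers.

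Spots of 1 probe were averaged, and 49 probes marked as outliers on some array were left out of 56605. The log2 processed signal minus the 75th percentile of each array was used. The brightest probe stood for a gene, and genes entered the test if 1 group or more had that probe flagged above background on its 3 arrays. A group-means model over all 12 arrays was fitted with limma 3.58.1 in R 4.3.3, with Benjamini-Hochberg adjustment over 19761 genes at 0.05. Between 47.0% and 55.2% of probes were well above background, 0 spots were saturated, and the number of arrays limits the precision. The fit was tested on simulated data.

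The members and gene lists were chosen with earlier results of these data known. All 41 members could be named, and of the other pathway lists at most the 3 called genes with the largest rise and the 3 with the largest fall in a comparison. Same-numbered arrays deviated from their group means with correlations of -0.258 to 0.116, so the numbers do not pair the samples. Alternatives changed the normalization, background correction, source of values, filter, probe rule, slide, replicate block, groups fitted, variance model and arrays. Tests of single probes and of slide 2 alone were chosen after seeing the data. The transgene itself is not analysed here.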

Additional observations from a re-analysis of the deposited data

Results flagged for a closer look

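The response to infarction differed between genotypes for 5 members, by limma's test of the interaction (TG+MI minus TG, less WT+MI minus WT, on the log2 scale). The interaction was -1.31 for Adora1 (adjusted p = 0.017), which fell in transgenic and rose in wild-type hearts. It was 0.98 for Pde4d (adjusted p = 0.0367), 0.88 for Rapgef4 (adjusted p = 0.0386), 0.62 for Akap6 (adjusted p = 0.0476) and 0.53 for Gnas (adjusted p = 0.0468), which fell in wild-type hearts and were not called in transgenic hearts. The Adora1 call was lost under 4 of 22 alternatives, those of Pde4d and Rapgef4 under 11, that of Akap6 under 16 and that of Gnas under 18. With groups of 3 arrays, no test for single outlying arrays was made.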

How the results depend on the processing

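No call of a member turned its direction under any alternative run. Of the calls, 11 of 21 in WT+MI against WT and 1 of 1 in TG against WT stayed under every alternative, and 0 of 6 in TG+MI against TG, 0 of 4 in TG+MI against WT+MI and 0 of 5 for the interaction. Without the filter on dim probes, limma called 955 genes in TG+MI against TG, 205 in TG against WT, 14 in TG+MI against WT+MI and 55 for the interaction, and 0 members in the last 2 comparisons (12 and 13 at an unadjusted p under 0.05). With slide as a block it called 119 genes and 1 member in TG+MI against TG, 320 genes in TG against WT, 0 genes and 0 members in TG+MI against WT+MI (1469 and 2 at an unadjusted p under 0.05), and 3 genes and 0 members for the interaction (9 members at an unadjusted p under 0.05). With slide as a random block, 4233 genes and 9 members were called in TG+MI against WT+MI. On slide 2 alone, chosen after seeing the data, 0 genes and 0 members were called in TG+MI against TG (1694 and 4 at an unadjusted p under 0.05), and on slide 1 alone 2 members in TG against WT. With only the groups compared, 690 genes and 1 member were called in TG+MI against TG, 904 and 2 in TG against WT, and 0 and 0 in TG+MI against WT+MI (4774 and 11 at an unadjusted p under 0.05). In TG+MI against WT+MI, 7 members were called with normexp and 0 with the mean of all probes (10 at an unadjusted p under 0.05). For the interaction, 3 members were called with quantile normalization, 3 with the authors' table, 8 among genes above background on all 12 arrays, 1 with the mean of all probes and 8 with trend and robust fitting. With the replicate block, 342 genes were called in TG against WT and 1156 for the interaction, and 5 members in TG+MI against TG, 4 in TG+MI against WT+MI, 1 in TG against WT, 21 in WT+MI against WT and 4 for the interaction. Leaving out 1 array gave 7235 to 10424 genes and 16 to 25 members in WT+MI against WT, 690 to 2286 and 2 to 8 in TG+MI against TG, 137 to 866 and 1 to 2 in TG against WT, 0 to 3524 and 0 to 5 in TG+MI against WT+MI, and 58 to 2691 and 0 to 7 for the interaction. The cause of these shifts was not tested. Dim members such as Adora2b are limited by signal over background.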
